A study of Homo sapiens with 14 samples.

Results

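The long arm of human chromosome 19 holds several runs of zinc finger genes, and 59 protein-coding genes with a ZNF symbol lie between 34500000 and 46000000 of hg19, which spans 19q13.1 to 19q13.3. They were chosen by symbol and position alone, out of 509 protein-coding ZNF genes and 63677 gene entries in the deposited gene tables. ZNF302, which starts at 35168544, is the first of them along the chromosome and ZNF296, which ends at 45579736, is the last. Most encode C2H2 zinc finger proteins of the KRAB class. In such a protein a row of zinc fingers binds DNA, and the KRAB domain recruits the corepressor TRIM28, which in turn brings in the histone methyltransferase SETDB1 and heterochromatin proteins. Many members of this large family bind transposable elements, and they are known for silencing them in early embryonic and pluripotent cells.

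RNA was sequenced from H9 human embryonic stem cells (hESC, 2 libraries), from definitive endoderm made from them, and from foregut. The endoderm control (3 libraries) carried dCAS9-KRAB, a catalytically dead Cas9 joined to a KRAB repressor domain, with no sgRNA, and the endoderm LTR5 CRISPRi group (3 libraries) carried the same fusion with an sgRNA against LTR5, the long terminal repeats of the endogenous retrovirus HERVK. The foregut control and foregut LTR5 CRISPRi groups, so named by their titles, had 2 libraries each. Endoderm was made with 100 ng/ml Activin A over 3 days, with CHIR-99021 at 5 μM on the first day and 0.5 μM on the second, and foregut with 3 further days of differentiation. dCAS9-KRAB and the sgRNA were brought in by lentivirus and cells were selected as pools, so that copy number and site of insertion were not controlled. Gastruloids, aggregates of 800 hESC treated with 3 μM CHIR and harvested at 72 h, were profiled in 1 preparation for RNA and open chromatin of single nuclei. The paper describes its RNA-seq replicates as biologically independent. The labels of the libraries do not say whether those of a group came from separate cultures. The p-values below measure the spread between libraries.

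The bulk libraries held 11583063 to 37152434 reads in genes. The 4 foregut libraries held 20811663 reads or more but had reads in only 15005 to 17926 genes, against 19678 to 20973 in the other 8, and mitochondrially encoded genes took 8.30% to 34.7% of reads. Labels other than the titles of the foregut libraries were at odds with the titles, so that groups were taken from titles. Foregut markers summed to 2640 to 3292 in counts-per-million (CPM) in foregut controls, 15.8 to 31.0 in endoderm controls and 13.0 to 14.0 in hESC. Endoderm markers summed to 5518 to 6048 CPM in endoderm controls and 29.2 to 43.5 in hESC. Markers of other cell types moved as well. A list of 6 mesoderm genes summed to 741 to 1228 CPM in endoderm controls and 3.04 to 4.19 in hESC. Most of it was MIXL1, with a mean of 828 CPM in endoderm controls. PDGFRA averaged 106, TBXT 24.0, HAND1 16.8, TBX6 14.7 and MESP1 4.53 CPM there. A list of 4 amnion and trophoblast genes summed to 69.2 to 109 CPM in foregut controls and 3.04 to 7.0 in endoderm controls. In foregut controls KRT7 averaged 63.4 CPM, GATA3 23.9, TFAP2A 1.09 and CGA 0.779. Pluripotency genes summed to 3050 to 3908 CPM in hESC, 2091 to 2740 in endoderm controls and 767 to 1042 in foregut controls. The foregut sum was mostly LIN28A, with a mean of 689 CPM, and SOX2, with 167. DNMT3B averaged 19.5 CPM in foregut controls, TDGF1 4.89, POU5F1 3.43, and NANOG and PRDM14 0. The part of other cells, if present, in the values below was not tested. In bulk RNA fewer cells of a type cannot be told apart from less RNA per cell.

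The genes fell into 6 neighbour groups, split wherever more than 500 kb lay between members. The largest ran from ZNF565 to ZNF573 with 26 genes over 1635 kb, and the next from ZNF575 to ZNF180 with 22 genes over 975 kb. ZNF302 to ZNF792 made a group of 5, ZNF546 to ZNF780A a group of 3, ZNF574 and ZNF526 a pair, and ZNF296 stood alone. On the plus strand lay 33 genes and on the minus strand 26. From their coding sequence, 50 held a KRAB A box and 9 did not (ZNF146, ZNF260, ZNF345, ZNF574, ZNF526, ZNF575, ZNF576, ZNF428 and ZNF296). The number of C2H2 fingers had a median of 13, from 1 in ZNF428 to 29 in ZNF850. Exons of 39 members overlapped those of another gene, on the opposite strand in 27 cases, and reads in the shared stretches cannot be assigned with certainty to either gene. ZNF565 and ZNF146, for example, overlap in opposite directions.

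Levels of RNA were expressed per kilobase of exon (RPKM, mean over the 7 hESC and control libraries), with all annotated exons of a gene merged. A gene with long annotated exons in sum, such as ZNF568 with 18608 bases, thus gets a lower value. The median member stood at 0.571 and 36 of 59 were below 1, and no value over all genes was set beside these. The highest were ZNF428 at 17.8 RPKM, ZNF146 at 17.5, ZNF296 at 10.8, ZNF792 at 5.28 and ZNF260 at 5.22. The lowest were ZNF829 at 0.106 RPKM, ZNF546 at 0.090, ZNF221 at 0.089, ZNF540 at 0.068 and ZNF575 at 0.032. Genes without a KRAB A box made up 5 of the 6 highest, with ZNF792 the exception. The 9 genes without the box had a median of 5.19 RPKM (from 0.032 to 17.8), and the 50 genes with it a median of 0.515 RPKM (from 0.068 to 5.28). This is a description over genes, which are not replicates, and the 2 classes overlapped, since ZNF575 and ZNF345 lacked the box and stood among the lower genes.

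**Figure D1:**
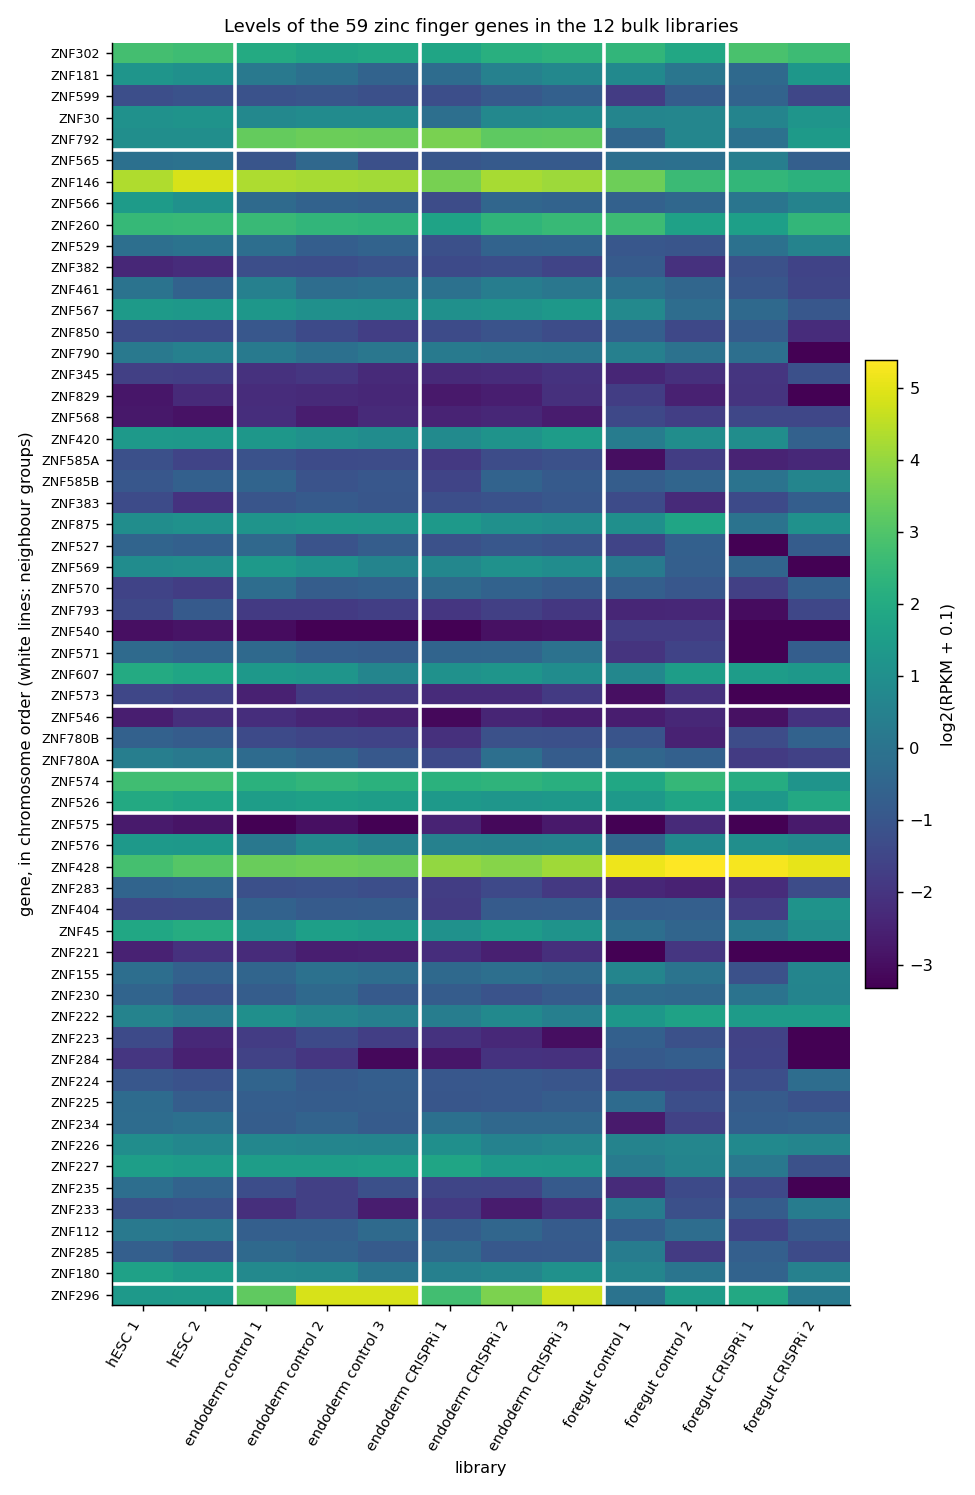
Level of each of the 59 genes (vertical axis, in chromosome order, white lines between neighbour groups) in each of the 12 bulk libraries (horizontal axis), as log2(RPKM + 0.1). ZNF146 and ZNF428 are bright throughout, ZNF792 and ZNF296 are bright in the 6 endoderm libraries, and most other genes are dark in every library.

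Summed over the 59 genes, the level was 491 and 506 CPM in the hESC libraries, and 467, 478 and 451 CPM in the endoderm controls. It was 392, 452 and 475 CPM in the endoderm CRISPRi libraries, 377 and 354 CPM in the foregut controls, and 336 and 373 CPM in the foregut CRISPRi libraries. Group means were 499 ± 10.3 (SD, n = 2), 465 ± 13.5 (n = 3), 439 ± 42.8 (n = 3), 365 ± 16.3 (n = 2) and 355 ± 25.9 CPM (n = 2) in the same order. hESC thus lay above every other library and the 4 foregut libraries lay below every other library, while each CRISPRi group overlapped its controls. The order of hESC and endoderm depended on which genes were summed. Over the 20 members whose exons overlap no other gene, hESC averaged 174 CPM, endoderm controls 210 and foregut controls 125. These 20 include ZNF792 and ZNF296, which averaged 8.24 and 4.17 CPM in hESC and 45.7 and 36.6 CPM in endoderm controls. The rise of these 2 genes together was larger than the gap between the hESC and endoderm sums. Reads were found for 57 to 59 members in each library except the foregut CRISPRi libraries, where 53 and 50 members had a read.

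From hESC to endoderm 5 of the 59 genes rose (ZNF792, ZNF296, ZNF382, ZNF570 and ZNF568) and 5 fell (ZNF566, ZNF181, ZNF235, ZNF233 and ZNF180). A gene was called where edgeR's quasi-likelihood test gave a Benjamini-Hochberg adjusted p under 0.05 over all genes tested and the fold was over 2. The background share of called genes in this comparison was 26.0% of 20818 tested, and the members' share was 16.9%, below it. By direction, 14.2% of all genes and 8.47% of members were called higher, and 11.8% and 8.47% called lower. Groups did not overlap and endoderm was lower for 27 members (45.8%, against 30.6% of all genes), and higher for 10 (16.9%, against 29.8%). The median log2 fold change was −0.23 over the members and 0.04 over all genes, and 36 members lay below 0, where 48.4% of all genes did. With no limit on the fold, 18 members passed (6 higher and 12 lower), and the background share was 37.9%. In a single fit of all 12 libraries 4 members passed, ZNF792, ZNF296, ZNF382 and ZNF566. The endoderm controls carried dCAS9-KRAB, and differentiation cannot be told apart from any difference from hESC in vector or selection.

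ZNF792, a KRAB zinc finger gene at chr19:35447258-35455133 on the minus strand, gave 8.30 and 8.18 CPM in hESC and 43.6, 47.1 and 46.6 CPM in endoderm controls. All endoderm libraries lay far above both hESC libraries and close to one another. Its log2 fold change was 2.51 ± 0.21 (SE), with an adjusted p of 2.53e-07 by edgeR. ZNF296, which has no KRAB box and lies at chr19:45574758-45579736 on the minus strand, gave 4.15 and 4.19 CPM in hESC and 15.4, 47.2 and 47.1 CPM in endoderm controls. The first endoderm library was well below the other two, but above hESC. The log2 fold change of ZNF296 was 3.16 ± 0.41, with an adjusted p of 1.82e-05 by edgeR. Neither gene has exons overlapping another gene.

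ZNF382, which encodes a KRAB repressor, gave 1.08 and 1.32 CPM in hESC and 3.69, 3.64 and 4.0 CPM in endoderm controls. It rose by a log2 fold change of 1.68 ± 0.33, with an adjusted p of 8.17e-04 by edgeR, and its groups did not overlap. ZNF570 rose by 1.49 (adjusted p 0.00293, edgeR), from a mean of 1.35 to 3.71 CPM, and did not pass without hESC library 2. ZNF568, whose mouse counterpart represses a placental transcript of Igf2, rose by 1.25 (adjusted p 0.0344, edgeR), from a mean of 0.761 to 1.78 CPM, and it was not past the threshold when any 1 of endoderm control library 1, endoderm control library 3 or either hESC library was left out. ZNF568 and ZNF233 did not pass under DESeq2 either (adjusted p 0.0777 and 0.111).

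Among the genes that fell, ZNF566 gave 17.3 and 13.0 CPM in hESC and 4.54, 3.68 and 3.38 CPM in endoderm controls. Its log2 fold change was −1.93 ± 0.26, with an adjusted p of 2.67e-05 by edgeR. ZNF181 gave 14.1 and 12.4 CPM in hESC and 6.53, 5.25 and 3.69 CPM in endoderm controls. Its log2 fold change was −1.32 ± 0.27, with an adjusted p of 0.00105 by edgeR. In both genes the hESC libraries were all above the endoderm libraries. ZNF235, ZNF233 and ZNF180 had log2 fold changes of −1.22, −1.35 and −1.01, with adjusted p-values of 0.0082, 0.0396 and 0.00661 by edgeR. ZNF233 and ZNF235 lie next to each other and overlap in their exons, and ZNF233 was low throughout, with means of 1.45 CPM in hESC and 0.541 CPM in endoderm. Without hESC library 1 none of these 3 passed, and ZNF180 and ZNF233 also did not pass without endoderm control library 3, nor ZNF233 without hESC library 2.

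**Figure D2:**
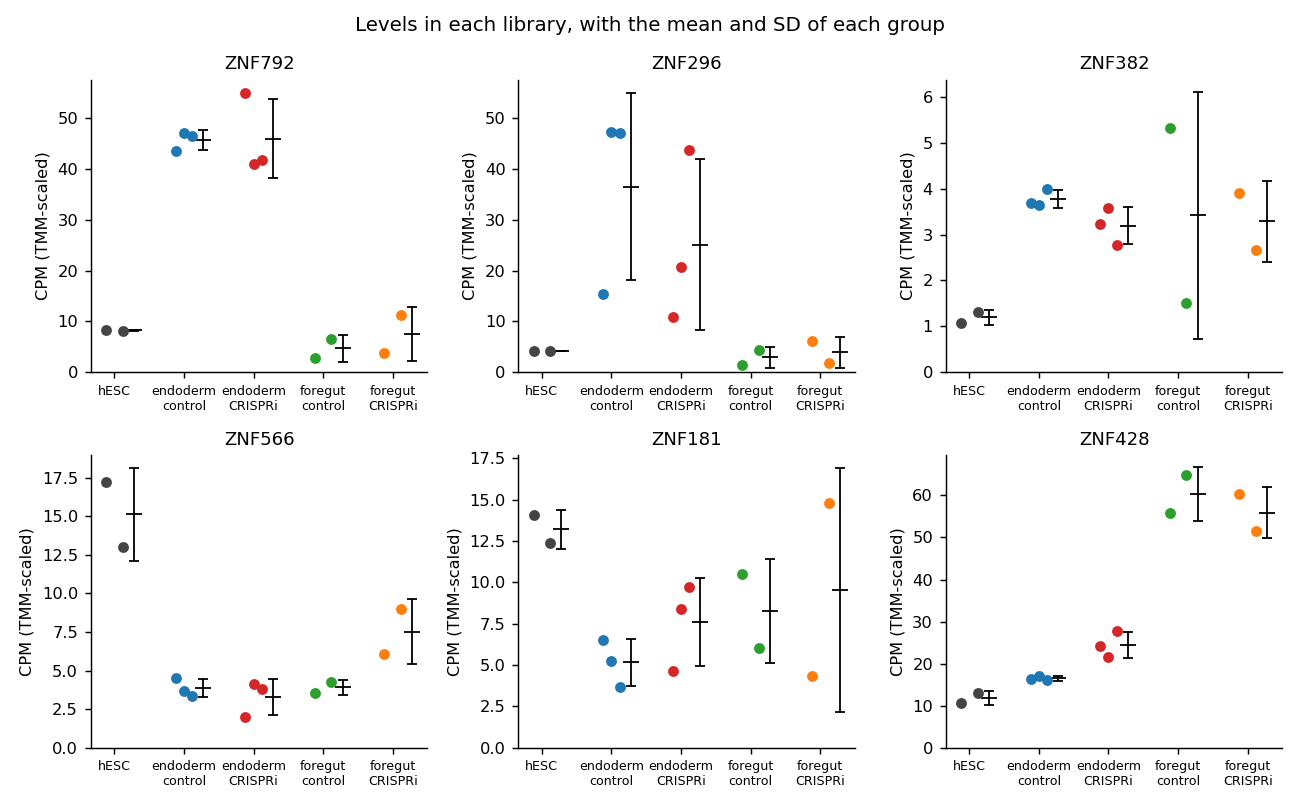
Level in CPM (vertical axis, from 0) of 6 of the genes in every library of each group (points), with the group mean and SD (bars to the right of the points). ZNF792 stands at 41.1 to 55.0 CPM in the 6 endoderm libraries and at 2.79 to 11.3 CPM elsewhere, and ZNF428 at 51.6 to 64.8 CPM in the 4 foregut libraries.

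Between endoderm and foregut controls 4 members rose (ZNF428, ZNF233, ZNF540 and ZNF568) and 8 fell (ZNF792, ZNF296, ZNF45, ZNF146, ZNF227, ZNF283, ZNF569 and ZNF571). The background share of called genes was 29.0% of 21466 tested, 14.1% higher and 15.0% lower, and the members' share was 20.3%. The median log2 fold change was −0.13 over the members and −0.09 over all genes. The endoderm controls are the same libraries as above, so that a gene high in them is high in both comparisons. The foregut libraries also held fewer genes with reads, and stage and any difference in handling cannot be told apart.

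ZNF428, a short protein with 1 finger and no KRAB box, gave 16.2, 17.1 and 16.1 CPM in endoderm controls and 55.9 and 64.8 CPM in foregut controls. Both foregut libraries were well above all endoderm controls. Its log2 fold change was 1.87 ± 0.21, with an adjusted p of 2.39e-04 by edgeR. ZNF428 shares exons with SRRM5 on the opposite strand. ZNF792 stood at 2.79 and 6.59 CPM in foregut controls, below its level in every endoderm control, with a log2 fold change of −3.28 ± 0.38 and an adjusted p of 2.72e-04 by edgeR. ZNF296 stood at 1.46 and 4.39 CPM in foregut controls, with a log2 fold change of −3.63 ± 0.63 and an adjusted p of 0.00233 by edgeR. The foregut control means of ZNF792 and ZNF296 were 4.69 and 2.92 CPM and the hESC means 8.24 and 4.17 CPM, so that among the 3 stages both were highest in endoderm.

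ZNF146, a protein made almost entirely of zinc fingers, gave 83.7 and 119 CPM in hESC, 83.0, 77.4 and 75.0 CPM in endoderm controls and 45.1 and 25.1 CPM in foregut controls. Every foregut library was below every endoderm control. The log2 fold change from endoderm to foregut was −1.16 ± 0.28, with an adjusted p of 0.0111 by edgeR, but it was −0.73, under the fold limit, without foregut control library 2. ZNF45 fell by 1.85 on the log2 scale (adjusted p 0.0029, edgeR), from a mean of 11.1 to 3.08 CPM. ZNF227 fell by 1.13 (adjusted p 0.0133, edgeR) and ZNF283 by 1.98 (adjusted p 0.0176, edgeR). ZNF569 and ZNF571 fell by 1.31 and 1.55, with adjusted p-values of 0.0376 and 0.0493 by edgeR. Of the genes that rose, ZNF568 had a log2 fold change of 1.32 (adjusted p 0.0449, edgeR). ZNF233 gave 4.71 and 1.36 CPM in the foregut controls, an adjusted p of 0.028 by edgeR. ZNF540 had 26 and 33 reads in the foregut controls and 2, 0 and 0 reads in the endoderm controls (adjusted p 0.0394, edgeR). Its fitted fold depends on the prior count and is not given.

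The count of members called between endoderm and foregut rested on each of the endoderm controls. It was 7, 6 and 6 without endoderm control library 1, 2 and 3 in turn. ZNF428, ZNF792, ZNF296, ZNF45 and ZNF146 passed in each of these fits.

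The corepressor genes that act with KRAB proteins were read as a list of 15, drawn up from textbook roles. From hESC to endoderm none was called higher and 1 was called lower (6.67%, against 26.0% of all genes called in either direction), with a median log2 fold change of −0.06 against 0.04 over all genes. The gene called lower was MORC2 of the HUSH silencing pathway, with a log2 fold change of −1.03 (adjusted p 7.03e-04, edgeR). TRIM28 averaged 1174 CPM in hESC, 716 in endoderm controls and 647 in foregut controls, a log2 fold change of −0.68 from hESC to endoderm (adjusted p 0.00562, edgeR), which is under the fold limit. The heterochromatin proteins CBX5 (−0.86, adjusted p 0.00176) and CBX3 (−0.80, adjusted p 0.00157) were lower by less than the fold limit as well, and the histone deacetylase HDAC1 (0.93, adjusted p 8.70e-04) and SETDB1 (0.55, adjusted p 0.0263, edgeR) were higher by less than it. Between endoderm and foregut controls 2 of the 15 were called lower, where 29.0% of all genes were called in either direction. They were ATF7IP, a partner of SETDB1, at −1.13 (adjusted p 0.00395) and the maintenance methyltransferase DNMT1 at −1.33 (adjusted p 0.00366, edgeR). Zinc finger genes of the region without a ZNF symbol numbered 6 with PLEKHG2 included, and 5 of them were tested. ZFP36, an RNA-binding decay factor, rose from hESC to endoderm (log2 fold change 1.75, adjusted p 7.30e-04, edgeR) and again to foregut (1.6, adjusted p 0.00261), and ZFP82 fell by 2.61 from endoderm to foregut (adjusted p 3.43e-04).

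With the LTR5 sgRNA no member was called in endoderm (0 of 59), where the background share was 0.0343% of 20407 genes. DESeq2 and limma with voom also called 0. At an unadjusted p under 0.05, edgeR gave 1 member higher and 1 lower, and the background share was 5.18%. The smallest adjusted p among members was 0.629. Groups did not overlap for 2 members higher and 5 lower, 3.39% and 8.47%, against 4.34% and 5.94% of all genes. The median log2 fold change was −0.11 over members and −0.02 over all genes. These controls are the endoderm controls of the comparisons above.

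ZNF428 had the smallest p. It gave 16.2, 17.1 and 16.1 CPM in controls and 24.2, 21.5 and 27.6 CPM with the sgRNA, without overlap, and a log2 difference of 0.59 ± 0.19 (unadjusted p 0.00934, adjusted p 0.629, edgeR). ZNF223, which holds an LTR5B in its body, gave 0.648, 0.967 and 0.688 CPM in controls and 0.462, 0.335 and 0.0840 CPM with the sgRNA. These groups did not overlap either, but the level was low, with 13, 21 and 11 reads against 7, 7 and 1. Its log2 difference was −1.30 ± 0.60 (unadjusted p 0.0487, adjusted p 0.959, edgeR). ZNF283, ZNF181, ZNF296 and ZNF234 had log2 differences of −0.61, 0.58, −0.52 and 0.50, each with an adjusted p of 0.992 or above by edgeR. ZNF792, which rose most clearly in endoderm, gave 55.0, 41.1 and 41.8 CPM with the sgRNA, a log2 difference from its controls of 0.027 ± 0.18.

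In foregut the sgRNA also left no member called (0 of 59; background 0.165% of 20044 genes), and DESeq2 and limma with voom called 0. At an unadjusted p under 0.05, edgeR gave 1 member higher and 0 lower (background 3.49%). This was ZNF529, with 3.38 and 3.23 CPM in controls and 6.93 and 11.4 CPM with the sgRNA, a log2 difference of 1.47 ± 0.68 (unadjusted p 0.0298, adjusted p 1, edgeR). Groups did not overlap for 10 members higher and 11 lower, 16.9% and 18.6%, against 11.7% and 15.7% of all genes. The median log2 difference was −0.07 over members and −0.06 over all genes. The standard errors were wide, with a median of 1.02 over the members against 0.30 in endoderm, so that only large differences could have been seen. Of the other members with the largest differences, ZNF284, ZNF234, ZNF780A and ZNF790 had log2 differences of −2.03, 1.90, −1.54 and −1.42, each with an adjusted p of 1. ZNF790 and ZNF284 had no read in foregut CRISPRi library 2, and without foregut CRISPRi library 1 a count of 2 members was called lower, ZNF790 and ZNF569, which both had no read in the library that was left.

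The difference between the foregut and endoderm effects of the sgRNA was tested as an interaction, and 0 of 59 members were called (background 0.194% of 22708 genes). DESeq2 and limma with voom also called 0. At an unadjusted p under 0.05, edgeR gave 2 members higher and 3 lower (background 8.23%). The largest differences among members with at least 1 CPM were those of ZNF283 (1.89), ZNF529 (1.74), ZNF404 (1.54), ZNF790 (−1.51) and ZNF224 (1.43) on the log2 scale, with adjusted p-values from 0.488 to 0.897 by edgeR. Leaving out foregut CRISPRi library 1 gave 3 called lower (ZNF790, ZNF569 and ZNF235), and leaving out library 2 of that group gave 2 (ZNF527 and ZNF571).

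**Figure D3:**
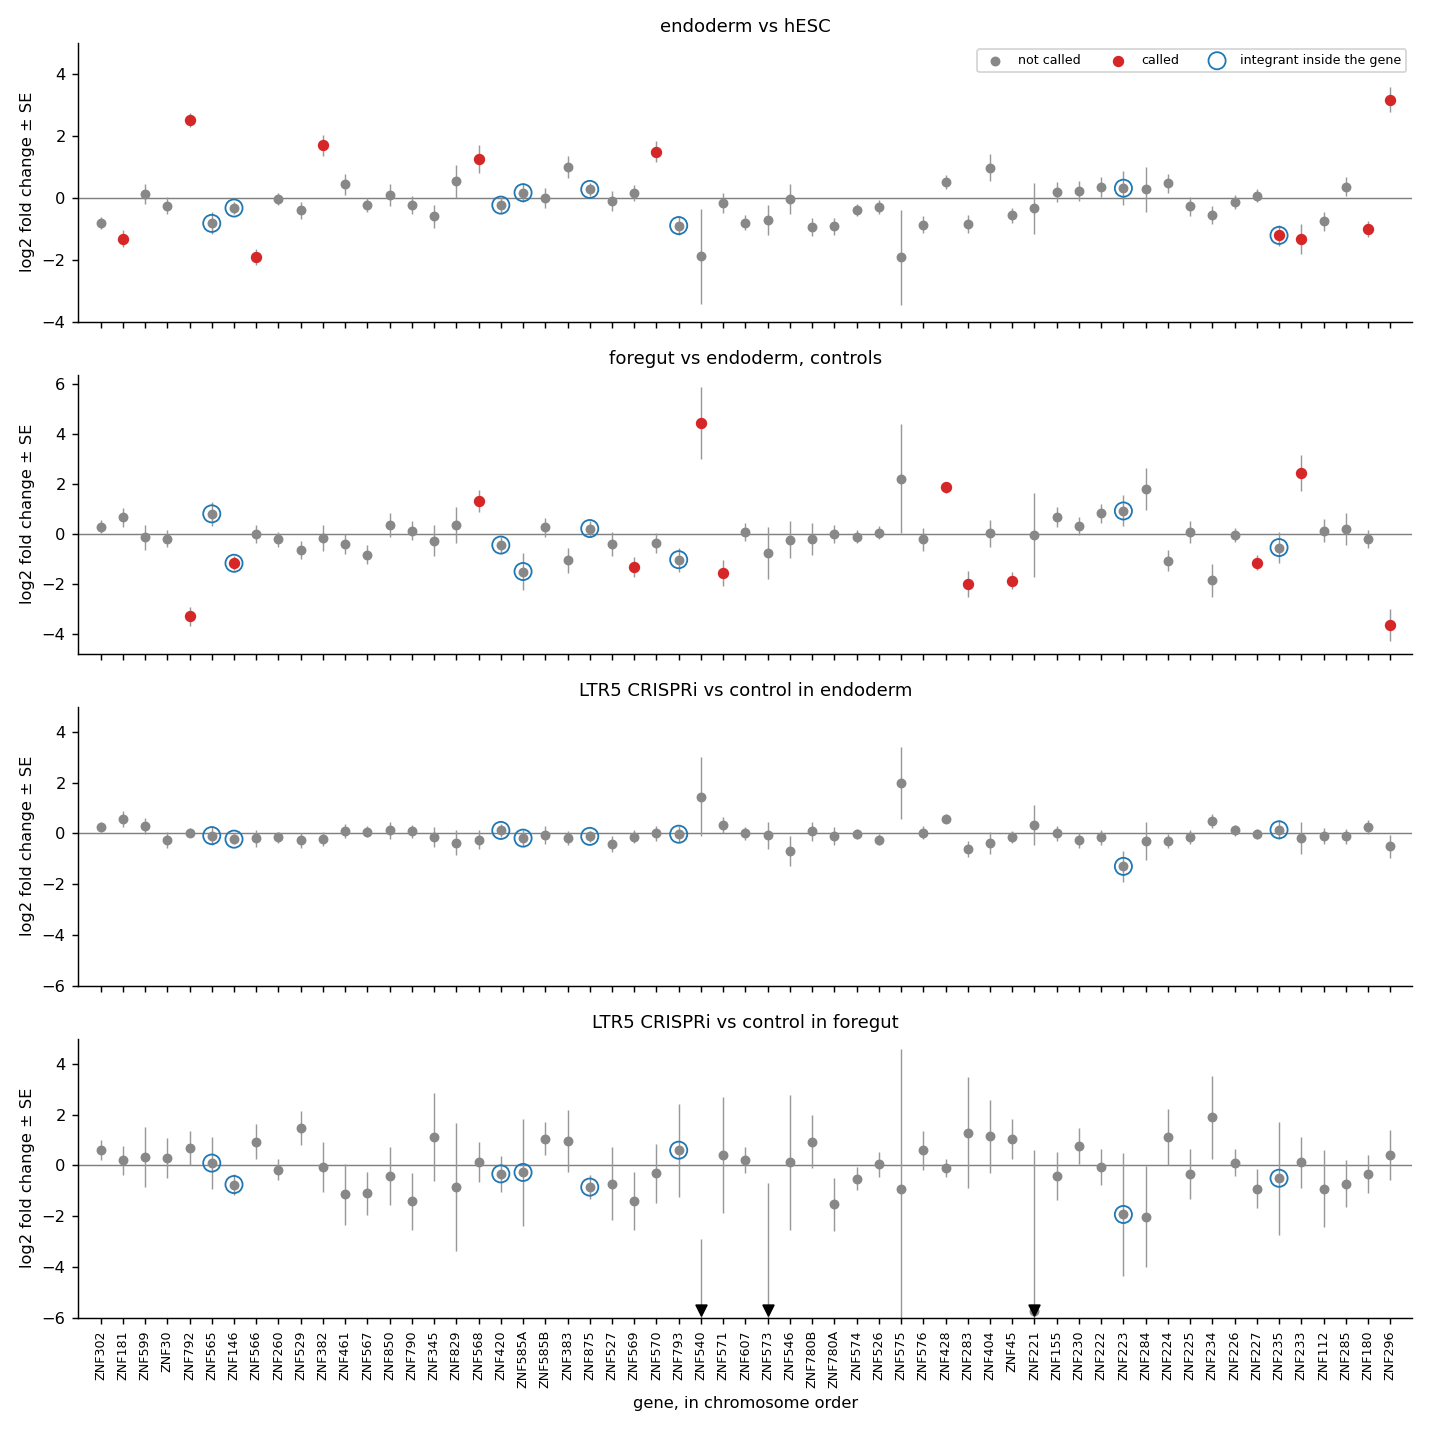
Log2 fold change with its SE (vertical axis) of each gene in chromosome order (horizontal axis) in 4 comparisons, called genes in red and genes with an LTR5 integrant inside their body ringed. Called genes appear in the upper 2 panels and none appear in the LTR5 CRISPRi panels, and black triangles mark 3 values below the axis in foregut, for genes with few reads.

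LTR5 integrants were frequent around these genes. Of the 59 members, 39 (66.1%) had an LTR5B or LTR5_Hs copy within 100 kb of their body, 30 within 50 kb and 17 within 20 kb, and 8 (13.6%) held one inside. Among protein-coding genes of chromosome 19 without a ZNF symbol, 160 of 1203 had one within 100 kb, and among all protein-coding genes 2364 of 19488 (12.1%). The median distance was 49.6 kb for the members and 891 kb for all protein-coding genes. The run in 19q13.41 was closer, with a median of 0.958 kb. Those in 19p12 and 19q13.43 were somewhat farther, with medians of 68.1 and 78.1 kb. Of all 450 other protein-coding ZNF genes, 143 (31.8%) had a copy within 100 kb. In 19q13.41, 28 of 30 had one within 100 kb and 14 held one inside, in 19p12 19 of 34 had one within 100 kb, and in 19q13.43 30 of 51. Neighbouring genes share integrants, so that genes are not independent here. Just inside and just outside the 100 kb limit lay ZNF180 at 92.8 kb and ZNF285 at 100.7 kb.

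The 8 genes with an integrant inside were ZNF565 and ZNF146 (one shared LTR5_Hs), ZNF420 and ZNF585A (one HERVK provirus, chr19:37597549-37607066), ZNF875, also known as HKR1 (2 LTR5_Hs), ZNF793 and ZNF235 (1 LTR5_Hs each), and ZNF223 (an LTR5B, chr19:44557263-44558251). Of the 18 members called from hESC to endoderm or from endoderm to foregut, 11 (61.1%) had a copy within 100 kb, against the 66.1% of all members. ZNF235 and ZNF146 held one inside, ZNF568 lay 1.12 kb from the nearest copy, and ZNF233, ZNF570 and ZNF540 5.34 to 15.8 kb. ZNF571, ZNF569, ZNF792 and ZNF227 lay 24.0 to 43.4 kb away and ZNF180 92.8 kb. ZNF566, ZNF45, ZNF382, ZNF181 and ZNF283 lay 112 to 201 kb away, ZNF296 431 kb and ZNF428 433 kb.

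None of the 8 genes with an integrant inside was called with the sgRNA in endoderm or foregut. In endoderm their log2 differences ran from −1.30 (ZNF223) to 0.14 (ZNF235), with a median of −0.10 and 6 of 8 below 0, where 52.7% of all genes lay below 0. The 31 members with a copy within 100 kb but outside had a median of −0.07, and the 20 members farther away a median of −0.11. ZNF146, the most abundant of the 8, gave 83.0, 77.4 and 75.0 CPM in controls and 49.5, 77.7 and 70.4 CPM with the sgRNA, a log2 difference of −0.23 ± 0.20 (adjusted p 0.999, edgeR). The low value came from 1 library, and the groups overlapped. ZNF875 (−0.12), ZNF420 (0.12), ZNF585A (−0.19), ZNF565 (−0.09) and ZNF793 (−0.03) also overlapped their controls. In foregut the medians were −0.42 inside, −0.31 near and 0.15 beyond 100 kb, with ZNF146 at −0.76 ± 0.40 and ZNF875 at −0.86 ± 0.47 (adjusted p 1 for both, edgeR).

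The run in 19q13.41, on the same arm, gave other values. Of its 28 genes tested in endoderm, all 28 lay below 0 with the sgRNA, with a median of −0.69, 13 had an unadjusted p under 0.05 and 19 did not overlap their controls, although 0 were called. Its 13 genes with an integrant inside had a median of −0.79. In foregut the median of 27 tested was −1.10, with 8 at an unadjusted p under 0.05. In the same endoderm comparison all 10 pluripotency genes lay below 0 (median −0.52, 4 at an unadjusted p under 0.05, summed level 1735 to 2190 CPM with the sgRNA and 2091 to 2740 in controls). Of the 6 mesoderm genes 5 lay above 0 (median 0.49, 2 at an unadjusted p under 0.05, summed level 945 to 1377 CPM with the sgRNA and 741 to 1228 in controls), with HAND1, a transcription factor gene of lateral mesoderm, at 1.45 (adjusted p 0.199, edgeR). No gene of either list was called, and their part in the values of the zinc finger genes was not tested. The difference between the 2 runs of genes was not tested as such. Over all protein-coding genes the endoderm medians were −0.13 with a copy inside (264 genes), −0.05 with one within 100 kb (1511 genes) and −0.04 beyond.

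The integrants of the region were themselves almost silent. The 27 integrants of the region summed to 7 and 2 reads in the hESC libraries, 18, 9 and 7 in the endoderm controls, 3, 5 and 4 in the endoderm CRISPRi libraries and 0 in each of the 4 foregut libraries. Every endoderm CRISPRi library was below every endoderm control. Over the whole genome the LTR5 integrants held 469, 534 and 374 reads in endoderm controls and 200, 314 and 195 with the sgRNA, and 702 and 670 in foregut controls and 319 and 276 with the sgRNA. In the region most reads fell on an LTR5_Hs at chr19:38120852-38121813 (19 reads over all libraries) and on a joined LTR5_Hs pair at chr19:36738023-36738826 (14 reads). The integrants within ZNF146, ZNF793, ZNF223 and ZNF235 had 0 reads in every library. A count of 0 in a library allows up to 3 reads, and counting of repeats can lose reads that match several copies.

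Open chromatin in gastruloid nuclei covered nearly all of the promoters. RefSeq promoters of GRCh38.p14 were matched for 53 of the 59 members, with 77 start sites. A peak lay within 1 kb of 74 of the 77 (96.1%), against 88.8% of start sites of all ZNF genes and 79.1% of those of all protein-coding genes. The only gene with none within 1 kb of a matched start site was ZNF404, where the nearest peak was 17.4 kb away. Its start site, 44388116 in hg19, lies inside the annotated gene, which runs to 44405537 and is read on the minus strand. Whether the peak marks another start of ZNF404 farther upstream was not tested. Promoters of the members, 300 bases each, held a median of 20 CG dinucleotides, against 22 over all ZNF genes and 21 over all protein-coding genes. The letters AGATAA occurred on either strand in 7 of the members' 77 promoters (9.09%), several of them alternative entries of ZNF112. Their share was 5.68% over all ZNF genes and 7.91% over all protein-coding genes. Promoters of ZNF792 and ZNF296, the members with the smallest adjusted p from hESC to endoderm, of ZNF428, the member with the smallest from endoderm to foregut controls, and of ZNF404 are printed from GRCh38.p14, 5′ to 3′ on the minus strand in all 4 cases, with each CG in capitals. They lie at chr19:34964180-34964479, chr19:45076429-45076728, chr19:43619580-43619879 and chr19:43883915-43884214.
ZNF792: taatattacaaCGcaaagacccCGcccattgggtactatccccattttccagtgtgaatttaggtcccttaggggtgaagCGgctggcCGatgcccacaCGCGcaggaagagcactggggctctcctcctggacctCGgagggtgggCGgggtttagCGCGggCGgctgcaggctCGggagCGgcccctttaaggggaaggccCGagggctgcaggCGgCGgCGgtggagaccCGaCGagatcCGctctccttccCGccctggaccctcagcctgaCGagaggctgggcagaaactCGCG
ZNF296: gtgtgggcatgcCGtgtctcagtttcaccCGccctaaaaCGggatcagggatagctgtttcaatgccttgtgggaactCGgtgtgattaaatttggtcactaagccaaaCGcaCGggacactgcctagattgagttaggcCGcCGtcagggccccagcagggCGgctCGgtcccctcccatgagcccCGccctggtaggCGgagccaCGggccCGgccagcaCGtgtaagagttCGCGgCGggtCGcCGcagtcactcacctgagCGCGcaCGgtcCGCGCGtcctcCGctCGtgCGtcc
ZNF428: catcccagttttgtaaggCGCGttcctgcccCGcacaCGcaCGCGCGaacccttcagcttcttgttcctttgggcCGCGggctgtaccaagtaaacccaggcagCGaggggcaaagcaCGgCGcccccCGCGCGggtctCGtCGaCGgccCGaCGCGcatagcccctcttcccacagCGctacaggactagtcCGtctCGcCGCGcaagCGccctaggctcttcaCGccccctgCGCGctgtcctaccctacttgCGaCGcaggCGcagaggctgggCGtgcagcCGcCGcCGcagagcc
ZNF404: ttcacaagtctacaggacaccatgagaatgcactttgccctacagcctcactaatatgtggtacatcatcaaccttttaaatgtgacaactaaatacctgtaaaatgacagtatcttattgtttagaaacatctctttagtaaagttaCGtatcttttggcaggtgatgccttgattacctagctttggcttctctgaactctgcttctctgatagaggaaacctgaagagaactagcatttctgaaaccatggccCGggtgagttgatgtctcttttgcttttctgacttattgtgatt
ZNF792, ZNF296 and ZNF428 held 24, 29 and 37 CG dinucleotides and a peak over the start. The stretch printed for ZNF404 held 2 and no peak at that start site. Bulk RNA of ZNF404 was low, from 0.462 to 5.20 CPM, but ZNF575, with less RNA per kilobase of exon, had a peak over its start. ZNF792 had an open start in gastruloids as well, although few of its transcripts were found there.

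Transcripts assigned to most of the set were counted in gastruloid nuclei. After nuclei with few UMIs (unique transcript counts) or many mitochondrial UMIs were left out, 3422 of 3646 nuclei were kept, with a median of 16302 UMIs, and 58 of the 59 genes were in the table (ZNF296 was not). They held 757 in counts-per-million of UMIs (UMI CPM). There was 1 preparation, so that no test between conditions was possible, and intervals are exact 95% Poisson intervals for counting error only. ZNF146 was highest at 64.7 UMI CPM (62.7 to 66.8), followed by ZNF428 at 59.1, ZNF302 at 44.9, ZNF565 at 40.0 and ZNF260 at 30.5. ZNF792 and ZNF575 were lowest at 0.93 each (0.70 to 1.21), from 55 UMIs each. Free RNA in droplets also gives UMIs and its level was not measured, so that counts this low do not show expression. Nuclear transcripts include introns and are not scaled by length, so that these levels are not comparable with RPKM between genes. ZNF565, whose body spans ZNF146 on the other strand, was among the highest here.

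Nuclei were clustered without any ZNF gene. The members' summed UMI CPM were 673 in cluster 1 (axial-like, 451 nuclei), 884 in cluster 2 and 788 in cluster 3 (both paraxial or somitic-like, 586 and 690 nuclei). They were 750 in cluster 4 (segmenting-like, 316), 729 in cluster 5 (neuromesodermal-like, 410) and 711 in cluster 8 (presomitic-like, 478). In cluster 5 SOX2, NKX1-2, CDX2 and FGF17 were over 2-fold higher, but TBXT was not. The neural list came second there, with a mean log2 fold of 1.52 against 1.91. Clusters 7, 9 and 10 stayed unnamed, with 699, 768 and 459 UMI CPM. Cluster 6 had only 18 nuclei and was not named either. Its leading marker list was the neural one, with SOX2, SOX3 and SOX21 over 2-fold higher, and its sum was 863 UMI CPM (763 to 972), which overlaps that of cluster 2. Cluster 10 had 67 nuclei with a median of only 2035 UMIs, and 19 of the 93 nuclei of cluster 7 were marked as doublets. Among the named clusters the paraxial or somitic-like cluster 2 was highest (865 to 903) and the axial-like cluster 1 lowest (657 to 690), intervals that do not overlap. With a finer clustering the sums ran from 462 to 1070.

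Single genes varied more than the sum. ZNF585B reached 17.5 UMI CPM in cluster 2, from 162 UMIs, and 2.17 to 10.1 in the other clusters numbered 1 to 9 with at least 50 nuclei. ZNF568 reached 10.0 in cluster 2, from 93 UMIs, and 2.49 to 5.74 in those others. ZNF428 stood at 51.0 to 61.1 in clusters 1 to 5, 7 and 8, at 93.3 in the unnamed cluster 9 and at 125 in cluster 10, the latter from 21 UMIs. ZNF146 ran from 47.5 in the axial-like cluster to 77.2 in cluster 2 among clusters 1 to 9, and stood at 11.9 in cluster 10, from 2 UMIs. ZNF792 was at or below 1.24 UMI CPM in every cluster.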

How the data were processed

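Gene and transposable element counts of the 12 bulk libraries are raw whole-number counts that the authors deposited after mapping to hg19, HISAT2 and Cell Ranger being the tools named per the labels, and counting uniquely mapped reads with featureCounts over genes and elements. Gastruloid nuclei (UMI counts) and peaks were deposited on hg38. Gene models were read from GRCh37 with a lifted GENCODE annotation, matching the chromosome names of the files, and 55665 of 63677 gene IDs were found in it. One gene with a ZNF symbol in the region was annotated but had no ID in the tables and was not analysed here. The members and lists were chosen with earlier results of these data known.

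Genes with at least 3 reads in 1 library of a comparison were tested with edgeR 4.0.16 (quasi-likelihood, TMM, 2-sided) in R 4.3.3, and called at an adjusted p under 0.05 (Benjamini-Hochberg over all genes tested) and a fold over 2. CPM are TMM-scaled. DESeq2 1.42.0 and voom with limma 3.58.1 were alternatives, beside other scaling, filters, thresholds, a replicate block and leaving out each library. On simulated counts with 200 genes changed 4-fold, 195, 194, 122, 165 and 89 were called in the endoderm, endoderm CRISPRi, foregut CRISPRi, foregut and interaction comparisons. In the same order, 14, 16, 15, 31 and 20 unchanged genes were called as well. In every comparison these false calls were a larger share of all calls than the 5% aimed at, most so in the foregut and interaction comparisons. Named genes were those called, at most 10 a comparison by adjusted p, or the 5 largest differences at 1 CPM or more where fewer than 5 were called, the highest and lowest by RPKM and in nuclei, genes without a KRAB box, with most or fewest fingers, and genes near LTR5; ZNF568 and ZNF571 between endoderm and foregut, ZNF585B, and ZNF223 as the in-body gene with the smallest p, were named after their values were seen.

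Sequence inside LTR5 copies is not reported here. Distances run from gene body to the nearest LTR5B or LTR5_Hs entry. Nuclei under 1000 UMIs, under 200 genes or over 25% mitochondrial UMIs were left out, and the others clustered with scanpy 1.11.5 (2000 variable genes without ZNF genes, 30 components, Leiden 0.5). Doublets were marked, 70 nuclei (2.05%), and kept. Intervals and floors cover counting error only. Replicate libraries of a group correlated at 0.92 to 0.98.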

Additional observations from a re-analysis of the deposited data

Results flagged for a closer look

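In ZNF283 and ZNF224 the sgRNA libraries lay on opposite sides of their controls in the 2 stages. Both were picked among the members for this pattern, and the share of all genes that show it was not counted. Over all genes, the sgRNA group lay below its controls without overlap for 5.94% in endoderm, and above them for 11.7% in foregut. ZNF283 gave 2.44, 2.58 and 2.38 CPM in endoderm controls and 1.45, 2.01 and 1.26 CPM with the sgRNA, all lower, and 0.682 and 0.564 CPM in foregut controls and 0.834 and 2.23 CPM with the sgRNA, both higher. The difference of the effects was 1.89 on the log2 scale (SE 0.95, unadjusted p 0.0647, adjusted p 0.634, edgeR), which did not pass.

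ZNF224, described as a repressor of the aldolase A gene, gave 4.24, 3.22 and 3.56 CPM in endoderm controls and 2.97, 3.01 and 2.77 CPM with the sgRNA, and 1.79 and 1.74 CPM in foregut controls and 2.28 and 5.46 CPM with the sgRNA. The difference was 1.43 (SE 0.72, unadjusted p 0.0661, adjusted p 0.636, edgeR), which did not pass either. In both genes foregut CRISPRi library 2, the library with the fewest genes with a read (15005), stood farthest from the controls, and its part in the difference was not tested.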

How the results depend on the processing

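The 10 members called from hESC to endoderm became 18 with no fold limit and 4 with all 12 libraries in one fit, and ran from 7 to 12 with 1 library left out. Between endoderm and foregut controls 12 ran from 6 to 14, and the median of −0.13 from −0.168 to −0.0135, and it was −0.32 with a replicate block. The 0 members called under CRISPRi became 1 in endoderm, 1 in foregut and 4 for the difference of the effects at an unadjusted p with a fold over 2, and with 1 library left out ran from 0 to 0, 0 to 2 and 0 to 3. The foregut CRISPRi median of −0.07 ran from −0.314 to 0.0681. The cause of these changes was not tested. ZNF404 reversed to −1.05 for the difference of the effects without foregut CRISPRi library 2, where its level was highest, and ran up to 2.44 with other libraries left out. Summed levels of hESC, endoderm controls, endoderm CRISPRi, foregut controls and foregut CRISPRi were 609, 561, 531, 458 and 443 CPM with mitochondrially encoded genes left out, 174, 210, 198, 125 and 134 CPM without members that overlap other exons, and hESC 514 CPM without TMM. Within 20 kb, 17 members had an LTR5 copy, where 39 had one within 100 kb. Equal replicate numbers share only a number, with deviations that correlated at 0.033 and 0.045 (endoderm and hESC), −0.021, −0.041 and 0.007 (endoderm CRISPRi), −0.217 (foregut CRISPRi) and 0.174 and 0.144 (foregut and endoderm). The replicate block gave 8 called from hESC to endoderm, 8 between endoderm and foregut and 0 in the CRISPRi comparisons, and a block with crossed numbers in foregut CRISPRi, chosen after seeing the data, gave 0. Depth limits the low genes, since most members lie below 1 RPKM and foregut standard errors are the widest.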
